A study of Mus musculus with 15 samples.

Results

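Mouse pancreatic acini treated with 250 uM of the bile acid TLC-S were compared with untreated acini, miRNA by miRNA. The comparison used 6 of the 15 small RNA libraries of the series, 3 of each group, and the mature miRNAs with enough counts to be tested, which were 351 of the 1915 in the table. Of these 1915, 739 had a count in at least 1 of the 6 libraries. The acini of both groups came from the pancreas of C57BL/6 mice aged 7 to 8 weeks. They differed by label only in the agent, which was none in the control group and TLC-S at 250 uM in the other. The remaining libraries were acini given TLC-S at 62.5 uM or caerulein, a peptide that stimulates the cholecystokinin receptor, at 100 nM or 100 pM. Per the labels the RNA was pooled over independent preparations of acini, but not which preparations are in which library. The p-values therefore measure only how the libraries vary, and that variation may be technical. How long the acini were treated is not given in the sources used here.

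Acini are the exocrine units of the pancreas, whose cells store digestive enzymes and release them on demand. TLC-S, taurolithocholic acid 3-sulfate, is a bile acid that raises calcium in acinar cells and is used to model the injury that bile reflux causes in pancreatitis. A mature miRNA is a short RNA cut from one arm (5p or 3p) of a hairpin precursor. It guides the silencing complex to messenger RNAs, mainly through its seed, the bases from position 2 to 8. Usually one arm, the guide, accumulates and the other, the passenger strand, is degraded.

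The sequences of the miRNAs on which the comparison turns are shown with the seed in capitals. They are RefSeq entries for GRCm38.p6, in which 312 of the 351 tested miRNAs matched by name. The first are the 3 matched miRNAs among the 8 with the smallest p-values in the direction of a higher level with TLC-S (miR-6240, miR-21a-3p and miR-27a-5p), the other arms of miR-21a and miR-27a, and both arms of miR-27b for comparison with miR-27a. The other 5 of the 8, miR-133a-3p, miR-1957a, miR-486a-5p, miR-486b-5p and miR-320-3p, had no matching entry.
miR-6240: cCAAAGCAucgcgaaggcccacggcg
miR-21a-3p: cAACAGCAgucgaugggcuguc
miR-21a-5p: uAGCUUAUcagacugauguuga
miR-27a-5p: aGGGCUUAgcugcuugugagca
miR-27a-3p: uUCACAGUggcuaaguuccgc
miR-27b-5p: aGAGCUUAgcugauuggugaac
miR-27b-3p: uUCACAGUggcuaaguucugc
The next had the smallest p-values in the other direction. They show that miR-26a-5p and miR-26b-5p share the seed UCAAGUA.
miR-26a-5p: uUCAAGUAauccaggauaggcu
miR-26b-5p: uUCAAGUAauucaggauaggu
miR-19b-3p: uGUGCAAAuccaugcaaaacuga
let-7b-3p: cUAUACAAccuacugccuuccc
miR-193b-3p: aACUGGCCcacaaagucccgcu
miR-203-3p: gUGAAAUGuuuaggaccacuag
miR-351-5p: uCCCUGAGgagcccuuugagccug
miR-24-2-5p: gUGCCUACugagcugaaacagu
The last are both arms of miR-872, whose ratio differed most between the groups among hairpins with enough counts, and 2 miRNAs that differed between the TLC-S doses.
miR-872-5p: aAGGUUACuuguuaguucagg
miR-872-3p: uGAACUAUugcaguagccuccu
miR-3968: cGAAUCCCacuccagacacca
miR-335-5p: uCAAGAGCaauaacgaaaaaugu

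Totals of mature miRNA counts ran from 1172899 to 3067507 with TLC-S at 250 uM and from 1846735 to 2847458 in control, and the tested miRNAs held at least 99.97% of each library. A count of 3, taken as the limit that a count of 0 allows, was worth 0.978 to 2.558 CPM (counts scaled to a common library size) in these 6 libraries, for counting error only. This range uses plain library totals, while the CPM of single miRNAs below carry a further scaling (TMM). Control replicate 3 stood apart. miR-148a-3p held 50.5% of its counts against 17.6% and 18.7% in the other control libraries, and its TMM factor, the scaling that offsets such dominance, was 0.735. The labelled tissue was checked against its markers: the 8 tested miRNAs of the pancreatic acinar list (both arms of miR-148a, miR-216a, miR-216b and miR-217) summed to 302000 to 581400 CPM with TLC-S and 243200 to 792400 CPM in control. In bulk samples such as these, fewer cells of a type and less RNA per cell cannot be told apart.

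Between acini given 250 uM TLC-S and control acini, 0 of 351 miRNAs passed an adjusted p of 0.05 in edgeR's quasi-likelihood test with Benjamini-Hochberg adjustment (0% of those tested). The smallest adjusted p was 0.999. At an unadjusted p under 0.05 there were 4 miRNAs (1.14% of those tested), and DESeq2 gave 0 adjusted calls and 5 at an unadjusted p under 0.05. The 4 were miR-133a-3p, miR-6240, miR-21a-3p and miR-1957a, all with higher means with TLC-S and all scarce. The log2 differences (TLC-S 250 uM minus control, here and below) had a median of -0.03, with the middle 50% of miRNAs between -0.22 and 0.17. They were above 0 for 158 miRNAs (45% of those tested) and below 0 for 193 (55%).

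The size of difference that these libraries leave possible depended on abundance. The 95% interval of the log2 difference lay within 1 of 0, that is within a 2-fold change either way, for 184 miRNAs (52.4% of those tested). Of the 20 miRNAs at 10000 CPM or more this held for 18, and of the 34 at 1000 to 10000 CPM for 33. The 3 exceptions were miR-26a-5p, miR-26b-5p and miR-99a-5p, named here after their values were seen. Below 10 CPM it held for 0 of 81 miRNAs, whose intervals reached a median of 1.38 to either side. At 10000 CPM or more they reached a median of 0.48. The log2 difference itself was beyond 1 in either direction for 8 miRNAs: miR-133a-3p, miR-21a-3p, miR-6240, miR-1957a and miR-31-3p above 1, and miR-351-5p, miR-154-5p and miR-9-3p below -1. Of these, miR-9-3p (-1.55, interval from -4.14 to 1.05), miR-154-5p (-1.01) and miR-31-3p (1.21) were named after their values were seen, and the levels of the groups overlapped for all 3.

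**Figure D1:**
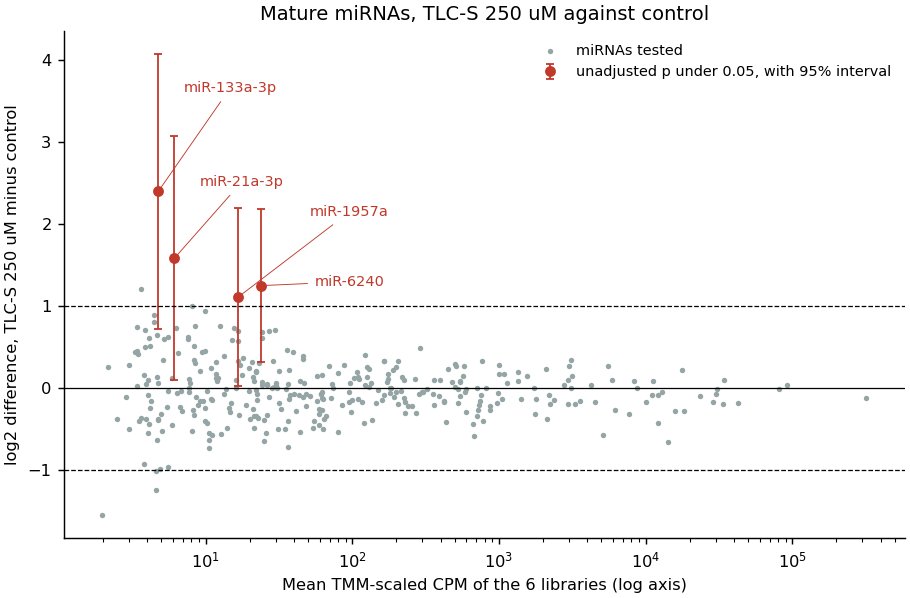
Log2 difference between TLC-S 250 uM and control (y axis) against the mean TMM-scaled CPM of the 6 libraries (x axis, log scale), 1 point for each of the 351 miRNAs tested; dashed lines mark a 2-fold difference. The 4 miRNAs with an unadjusted p under 0.05 are red with their 95% intervals, all lie above 1 at fewer than 100 CPM, and no miRNA passed the adjusted threshold.

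The hairpin of miR-6240 lies on the plus strand of chromosome 5 (chr5:114851948-114852064, GRCm38) with no other annotated gene there in GENCODE M21. Its printed sequence has 26 bases, 69.2% of them G or C, and whether all its reads come from this hairpin was not tested. miR-6240 was at 34.7, 24.8 and 40.9 CPM with TLC-S and at 9.69, 21.7 and 10.5 CPM in control. Values are of replicates 1, 2 and 3, TMM-scaled, here and below. Every TLC-S library was above every control library, and control replicate 2 came close to the lowest of them. The log2 difference was 1.25 (SE 0.45, 95% interval 0.31 to 2.18, unadjusted p = 0.0108, adjusted p = 0.999, edgeR). It ran from 1.04 to 1.76 as each of the 6 libraries was left out.

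miR-133a-3p is a miRNA of skeletal and heart muscle. It was at 2.36, 17.8 and 3.98 CPM with TLC-S and at 2.42, 1.50 and 0.478 CPM in control. TLC-S replicate 2 was high and replicate 1 lay within the control range, so the groups overlapped. The log2 difference was 2.40 (SE 0.81, interval 0.72 to 4.07, unadjusted p = 0.00678, adjusted p = 0.999, edgeR), and it was 1.19 without TLC-S replicate 2. Another muscle miRNA, miR-1a-3p, had its highest level in the same library, at 6.30, 32.4 and 19.2 CPM with TLC-S against 13.1, 13.5 and 8.60 CPM in control. The third muscle miRNA tested, miR-206-3p, did not, at 10.2, 4.45 and 12.3 CPM with TLC-S against 7.27, 15.3 and 7.65 CPM. Of the 5 muscle miRNAs listed, 1 (miR-499-5p) had no count in any of the 6 libraries. The part of muscle RNA in these values was not tested.

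miR-1957a was at 24.4, 26.1 and 17.7 CPM with TLC-S and at 12.1, 7.48 and 12.0 CPM in control, without overlap. Its log2 difference was 1.11 (SE 0.53, interval 0.02 to 2.19, unadjusted p = 0.0454, adjusted p = 0.999, edgeR).

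miR-21 is in the title of the series, by its 3p arm. Mir21a lies on the minus strand of chromosome 11 (chr11:86584067-86584158) within an exon of Vmp1, a gene of autophagy. Its 5p arm, one of the most studied miRNAs of inflammation and cancer, is the guide, and the 3p arm is the passenger strand. miR-21a-3p was at 4.73, 10.8 and 11.9 CPM with TLC-S, from 6, 17 and 33 counts, and at 1.45, 2.62 and 5.26 CPM in control, from 3, 7 and 11 counts. TLC-S replicates 2 and 3 were above every control library, and replicate 1 was below control replicate 3. miR-21a-5p was at 14120, 16000 and 19560 CPM with TLC-S and at 19140, 17900 and 23280 CPM in control. TLC-S replicates 1 and 2 were below every control library, and replicate 3 was inside the control range. The log2 difference was 1.58 for the 3p arm, with an interval from 0.10 to 3.07 (unadjusted p = 0.0376, edgeR), and -0.28 for the 5p arm, with an interval from -0.82 to 0.26.

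Within each library the ratio of the 3p to the 5p count needs no scaling between libraries. As log2 with 0.5 added to each count, the ratio for miR-21a was -11.43, -10.49 and -10.66 with TLC-S (mean -10.9 ± 0.502, SD, n = 3) and -13.46, -12.64 and -12.05 in control (mean -12.7 ± 0.71, SD, n = 3). All TLC-S libraries had a higher ratio than every control library. The difference of 1.86 had an exact two-sided permutation p of 0.1, the smallest that 3 against 3 libraries allow. The series title that led to miR-21a may itself rest on these libraries, so this p is no independent support. The difference was also followed over the libraries. As single libraries were left out it ran from 1.49 to 2.19. The lowest ratio, in control replicate 1, rests on 3 counts of the 3p arm.

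The same ratio was computed for the 73 hairpins with a mean count of at least 10 for both arms in each group, a limit that miR-21a itself missed, with a mean of 7 counts of its 3p arm in control. Its difference between groups had a median of 0.00 and was above 0 for 38. The groups did not overlap for 7 of the 73 (9.589%), 2 with a higher and 5 with a lower 3p share. The 4 with the widest differences were chosen for their size, so their values are a description. miR-872, from an intron of Ift74 (chr4:94665157-94665237), had log2 ratios of -2.39, -1.80 and -2.18 with TLC-S and -3.44, -3.47 and -3.02 in control, a difference of 1.19. The other 3 went the opposite way, with fewer 3p counts for each 5p count. miR-27b (chr13:63300712-63300784, in an exon of 2010111I01Rik) was at 10.7, 10.5 and 11.0 with TLC-S and 12.7, 11.5 and 11.5 in control, a difference of -1.15 that was -0.77 without control replicate 1. For miR-27a (chr8:84208672-84208758, outside other annotated genes) the difference was -0.97, and for let-7b (chr15:85707319-85707403, in an exon of Lncppara) it was -0.88.

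In each of these 4 hairpins the scarcer arm had the larger log2 difference. For miR-872 the 3p arm was at 0.76 (interval from -0.33 to 1.85) and the 5p arm at -0.40 (interval from -1.07 to 0.27). For miR-27b the guide, miR-27b-3p, differed by -0.10 (interval from -0.51 to 0.30), and the passenger miR-27b-5p by 0.94 (interval from -0.20 to 2.09), at 14.2, 15.3 and 10.1 CPM against 3.39, 8.60 and 8.12 CPM in control. For miR-27a the guide, miR-27a-3p, differed by -0.0028 (interval from -0.46 to 0.45). Its passenger, miR-27a-5p, was at 11.8, 7.63 and 12.7 CPM with TLC-S and 5.33, 6.36 and 4.30 CPM in control, a log2 difference of 1.00 (interval from -0.03 to 2.03). Both passengers were higher in every TLC-S library than in any control library. The guides share the seed UCACAGU, and the passengers have the seeds GGGCUUA and GAGCUUA. For let-7b, a member of the let-7 family that restrains growth, the guide let-7b-5p differed by 0.26 (interval from -0.16 to 0.69). Its passenger let-7b-3p was at 17.3, 17.2 and 23.9 CPM with TLC-S and 41.7, 25.4 and 25.3 CPM in control, lower in all TLC-S libraries (-0.64, interval from -1.33 to 0.05, or -0.32 without control replicate 1).

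**Figure D2:**
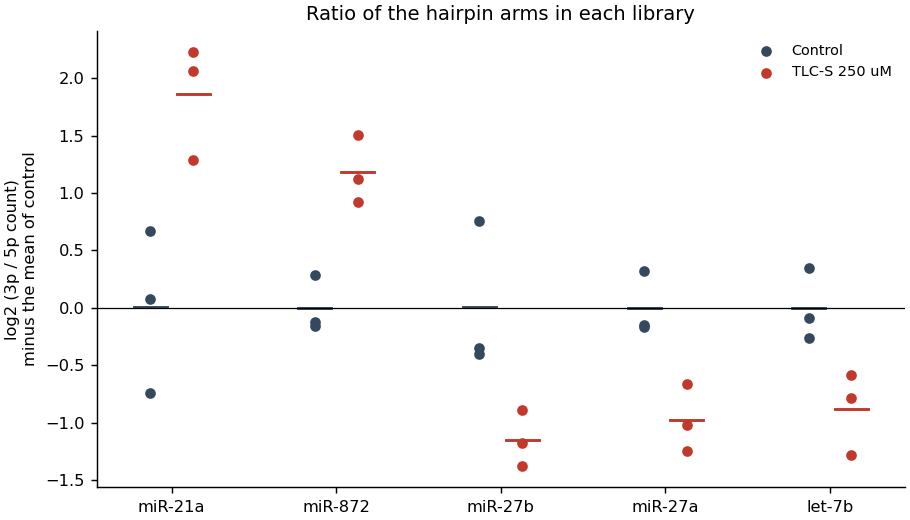
Log2 ratio of 3p to 5p counts of 5 hairpins, shown as the difference from the control mean (y axis), 1 point a library and a bar at the mean of 3. The TLC-S 250 uM libraries lie above every control library for miR-21a and miR-872 and below every control library for miR-27b, miR-27a and let-7b. miR-21a was named by the title of this same series, which may rest on these libraries. The others were chosen for the size of this difference.

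The remaining miRNAs with the smallest p-values in the higher direction were led by a pair of red blood cell miRNAs. miR-486b-5p was at 32.3, 31.8 and 46.7 CPM with TLC-S and 15.5, 27.3 and 25.3 CPM in control, a log2 difference of 0.71 (interval from -0.01 to 1.42, unadjusted p = 0.0516, edgeR). miR-486a-5p had nearly the same levels, from 28.4 to 42.0 CPM against 13.1 to 26.9 CPM, and a difference of 0.69. Neither overlapped between groups. The pair are near-identical copies between which reads may be divided, so their separate levels are uncertain. The defining red cell miRNA, miR-451a, was not higher: it was at 65.4, 98.6 and 74.2 CPM with TLC-S and 108, 67.7 and 99.4 CPM in control, a difference of -0.21. miR-320-3p, cut by a route that bypasses the usual hairpin processing by Drosha, was at 386, 279 and 346 CPM with TLC-S and 191, 336 and 189 CPM in control, where replicate 2 was inside the TLC-S range (0.49, interval from -0.06 to 1.04). Its difference was 0.85 without control replicate 2.

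Among the miRNAs with the smallest p-values in the lower direction, none reached an unadjusted p of 0.05. miR-26a-5p and miR-26b-5p, which lie in genes of the Ctdsp phosphatase family (Mir26a-1 in an intron of Ctdspl, Mir26a-2 in an exon of Ctdsp2, Mir26b in an intron of Ctdsp1), came together. miR-26a-5p was at 10300, 9847 and 12990 CPM with TLC-S and at 16430, 7921 and 27950 CPM in control, and miR-26b-5p was at 4597, 3710 and 3973 CPM with TLC-S and at 5585, 3314 and 9401 CPM in control. For both, control replicate 3 was the highest and control replicate 2 the lowest of the 6 libraries, so the TLC-S libraries lay between the control libraries. The log2 differences were -0.66 (unadjusted p = 0.0576, edgeR) and -0.58 (unadjusted p = 0.0713, edgeR). Without control replicate 3 they were -0.13 and -0.11.

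For each of the others in this direction, the highest library was a control library and the lowest a TLC-S library. miR-203-3p, a miRNA of epithelial differentiation (chr12:112130880-112130955, outside other annotated genes), was at 539, 542 and 613 CPM with TLC-S and 781, 619 and 889 CPM in control. The groups did not overlap but nearly met, and the log2 difference was -0.43 (interval from -0.92 to 0.06). miR-193b-3p, known as a restraint on growth (chr16:13449523-13449601, in an intron of the antisense gene Gm15738), was at 29.9, 26.1 and 27.2 CPM with TLC-S and at 64.9, 36.3 and 35.4 CPM in control. Its groups did not overlap either, and control replicate 1 was high (-0.71, or -0.33 without control replicate 1). miR-351-5p, with the seed of miR-125, was at 0, 4.45 and 3.26 CPM with TLC-S and 6.78, 7.10 and 5.74 CPM in control. The 0 in TLC-S replicate 1 allows up to 3 counts, or 2.36 CPM as TMM-scaled, so all TLC-S libraries were below every control library (-1.24, interval from -2.71 to 0.22). Without that TLC-S library the difference was -0.73. miR-19b-3p of the miR-17-92 cluster was at 574, 675 and 362 CPM with TLC-S and 998, 817 and 610 CPM in control, overlapping (-0.59, interval from -1.21 to 0.02, or -0.37 without control replicate 1).

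**Figure D3:**
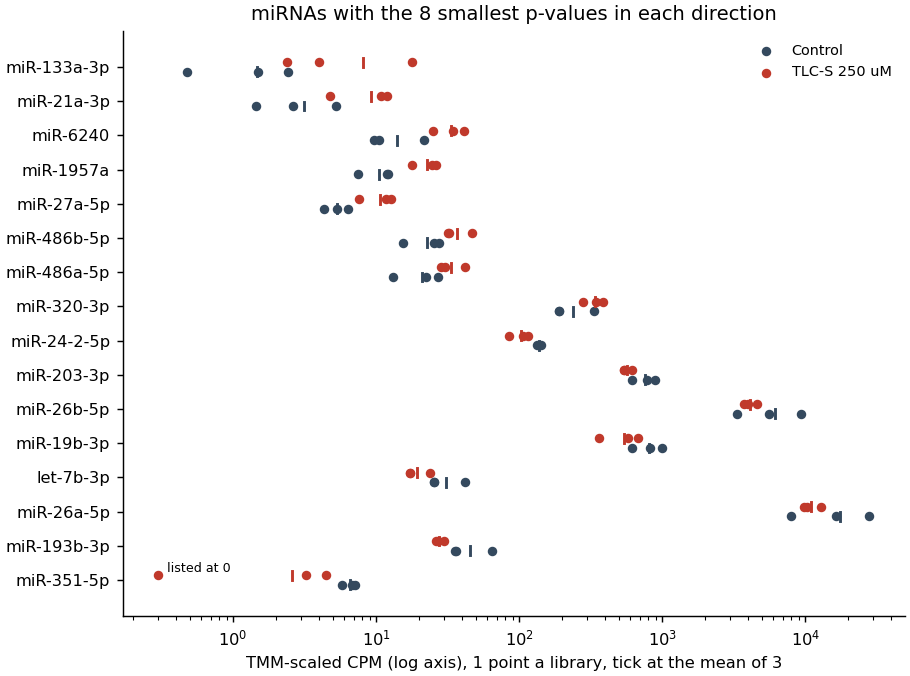
TMM-scaled CPM (x axis, log scale) of the 16 miRNAs with the 8 smallest p-values in each direction, 1 point for each of the 3 libraries a group and a tick at the mean, ordered by log2 difference. The groups overlap for miR-133a-3p, miR-21a-3p, miR-320-3p, miR-26a-5p, miR-26b-5p and miR-19b-3p and not in the other rows. All rows were picked by their p-values, so separation here is no support for a difference. The control points of miR-26a-5p and miR-26b-5p spread to both sides of the TLC-S points, and 1 TLC-S point of miR-133a-3p lies far from the other 2.

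Over all miRNAs tested, the levels of the 2 groups did not overlap for 25 (7.12%), 13 higher with TLC-S (3.7%) and 12 lower (3.42%). For 3 against 3 libraries such a separation has an exact two-sided permutation p of 0.1, so the members named here are a description. In the lower group were 2 products of the precursor Mir24-2 in the miR-23a/27a/24-2 cluster on chromosome 8. miR-24-3p, which also comes from Mir24-1 on chromosome 13, was at 2060, 1655 and 1807 CPM with TLC-S and 2500, 2408 and 2273 CPM in control (-0.38, interval from -0.88 to 0.12; named after its values were seen). miR-24-2-5p was at 107, 84.6 and 115 CPM against 133, 138 and 141 CPM (-0.43, interval from -0.94 to 0.09, or -0.27 without TLC-S replicate 2). The same cluster holds miR-27a-5p, which lay in the other direction, so 3 of its 5 tested miRNAs separated the groups and the median of the 5 was -0.20. miR-132-3p, a miRNA induced through CREB by calcium signalling, was at 31.5, 34.3 and 41.3 CPM with TLC-S and 57.2, 45.6 and 53.1 CPM in control (-0.53, interval from -1.20 to 0.13). miR-223-3p, a miRNA of neutrophils and monocytes, was at 7.09, 4.45 and 5.79 CPM with TLC-S and 4.36, 3.37 and 1.43 CPM in control (0.89, interval from -0.40 to 2.19, or 0.58 without control replicate 3), so the groups nearly met.

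The most abundant miRNAs of acini showed no difference beyond the spread between libraries. miR-148a-3p, the leading acinar miRNA (chr6:51269812-51269910, minus strand), held 27.9%, 21.4% and 42.7% of counts with TLC-S and 17.6%, 18.7% and 50.5% in control. The means were 30.6% ± 10.9 and 29.0% ± 18.7 (SD, n = 3 each), a difference of 1.68 percentage points (exact two-sided permutation p = 0.8). As TMM-scaled CPM its log2 difference was -0.13, with an interval from -0.96 to 0.70, and it was 0.97 without control replicate 3. Its direction was not settled, as it reversed in 7 of 17 alternative analyses, 3 of them with a single library left out. miR-375-3p, abundant in islets and also made in acinar cells, held 9.78% ± 2.44 with TLC-S and 9.48% ± 4.01 in control (SD, n = 3; exact two-sided permutation p = 0.9). The 10 most abundant miRNAs together held 71.5% ± 3.78 and 70.3% ± 6.42 of counts (SD, n = 3; exact two-sided permutation p = 0.8). The log2 intervals of the other 8 of these 10, among them miR-217-5p (-0.01), miR-200a-3p (-0.18), let-7i-5p (0.09) and miR-30a-5p (-0.08), all lay within 1 of 0.

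The miRNAs were also described by lists of cell types and pathways, in which 0 members passed the test. Over all 351 miRNAs the median was -0.03 with 45% above 0. The sign of the median held in all 18 alternative analyses for 7 of the 19 lists (endothelial, erythrocyte, calcium and CREB, miR-17-92, miR-183, muscle and liver) and not for the other 12. The pancreatic acinar list had 2 of 8 members above 0 and a median of -0.10, which was -0.02 without control replicate 3 and 0.01 without control replicate 2. miR-216a-5p was at -0.08 (interval from -0.54 to 0.37) and miR-216b-5p at -0.32 (interval from -0.78 to 0.15). The miR-200 family, which keeps the epithelial state, had 2 of 7 above 0 and a median of -0.18 (0.03 without control replicate 1), with miR-200b-3p at -0.19 and miR-200c-3p at -0.18 against miR-429-3p at 0.09. The islet and neuroendocrine list had 5 of 7 above 0 and a median of 0.08, but 3 of 7 and -0.04 without control replicate 3, so its direction rested on that library.

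Lists of the other cell types that a preparation of acini can hold gave summed levels that overlapped between the groups. The mesenchymal and stellate list (miR-143, miR-145a, miR-199 and miR-214) had 5 of 9 members above 0, a median of 0.00 (from -0.06 to 0.15 as single libraries were left out) and summed levels of 8185 to 17670 CPM with TLC-S against 12130 to 12980 CPM. The arms of miR-126a, the endothelial miRNA, were at -0.27 and -0.29 and summed to 4454 to 7896 CPM against 6720 to 8513 CPM. Their median was -0.07 without TLC-S replicate 2 and -0.51 without TLC-S replicate 3. The leukocyte list had 3 of 4 above 0, a median of 0.10 and sums of 83.3 to 132 CPM against 72.6 to 115 CPM. That median was -0.05 without control replicate 3, with 2 of 4 above 0, also -0.05 without TLC-S replicate 1, and 0.42 without control replicate 2. Its member miR-142a-5p was at -0.93 (interval from -2.45 to 0.59, or -0.49 without control replicate 3) and miR-150-5p at 0.15. The erythrocyte list had 3 of 4 above 0, a median of 0.38 and sums of 135 to 176 CPM against 131 to 156 CPM. Its 3 members above 0 were miR-144-3p and the near-identical miR-486a-5p and miR-486b-5p, so the median counts that pair as 2. Its other member, miR-451a, was at -0.21. The median was 0.15 without TLC-S replicate 3, 0.70 without TLC-S replicate 2 and 0.08 without the filter on scarce miRNAs. Muscle miRNAs had 2 of 3 above 0 and a median of 0.73, which was 0.24 without TLC-S replicate 2 and 1.17 without TLC-S replicate 1, and they summed to 18.9 to 54.7 CPM against 16.7 to 30.3 CPM. The liver miRNA miR-122-5p was at 0.44 (interval from -0.83 to 1.71, or 0.07 without TLC-S replicate 2).

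Of the miRNAs that inflammation induces, 3 of 6 were above 0, with a median of 0.10. The median was -0.02 without control replicate 3 and -0.18 at a mean CPM of at least 10, so its sign was not kept. miR-146a-5p, a brake on NF-kB signalling, was at 846, 1375 and 1064 CPM with TLC-S and 894, 1142 and 659 CPM in control, overlapping (0.29, interval from -0.37 to 0.94, or 0.12 without control replicate 3). miR-146b-5p was at -0.09 (interval from -0.64 to 0.46). miR-155-5p, a miRNA of activated immune cells named after its values were seen, was at 5.51, 3.18 and 8.33 CPM against 0.485, 4.11 and 5.26 CPM (0.81, interval from -0.73 to 2.34, or 0.34 without TLC-S replicate 3). The calcium and CREB list, the arms of miR-132 and miR-212, had 1 of 3 above 0 and a median of -0.27, which was -0.0012 without control replicate 1. Its summed level was lower in every TLC-S library, at 42.0 to 53.9 CPM against 55.7 to 72.2 CPM, and most of that sum was miR-132-3p. miR-212-3p, which lies beside miR-132 in the genome, was at 0.75 (interval from -1.05 to 2.54, or 0.34 without TLC-S replicate 3).

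Lists of stress responses lay close to all miRNAs. The p53, hypoxia and stress list had 2 of 6 above 0 and the endoplasmic reticulum stress list 5 of 10. The medians were -0.03 and -0.02, and both changed sign with the scaling. miR-34a-5p, a target of p53, was at 789, 942 and 399 CPM with TLC-S and 931, 727 and 465 CPM in control (0.003, interval from -0.70 to 0.70). miR-210-3p, the hypoxia miRNA, was at -0.10 (interval from -0.73 to 0.54). The let-7 guides had 5 of 9 above 0 and a median of 0.03 (from -0.14 to 0.15 as single libraries were left out), and all 9 intervals lay within 1 of 0. The miR-17-92 cluster, which promotes growth, had 1 of 7 above 0 (miR-92a-3p, 0.26) and a median of -0.18, which ran from -0.55 without TLC-S replicate 1 to -0.03 without TLC-S replicate 2. The miR-29 family, which represses collagen genes, had a median of 0.09 (-0.0042 without TLC-S replicate 1). The miR-30 family had a median of -0.08, which was 0.10 with library totals and 0.03 without control replicate 3. The median of the miR-183 cluster was -0.15, and -0.02 without control replicate 1. The 25 tested miRNAs of the imprinted Dlk1-Dio3 locus had 15 above 0 and a median of 0.06, with miR-127-3p at 0.08. The median was -0.09 without TLC-S replicate 2 and 0.32 without TLC-S replicate 1.

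**Figure D4:**
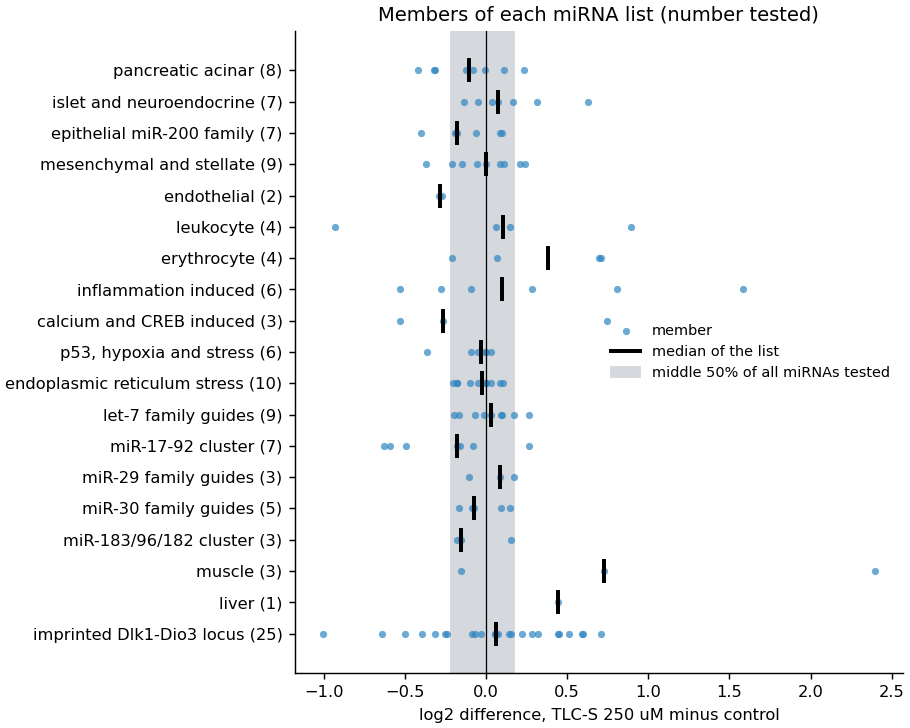
Log2 difference between TLC-S 250 uM and control (x axis) of each tested member of 19 miRNA lists (y axis, number tested in brackets), with the list's median as a black bar; the grey band holds the middle 50% of all 351 miRNAs. The medians of 14 of the 19 lists lie inside the band, those of the erythrocyte, muscle and liver lists to its right and those of the endothelial and the calcium and CREB lists to its left.

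Families that share a seed had medians near 0. Seeds were read only for the 312 tested miRNAs with a matching sequence, so families may lack members here. Of the 12 seeds with at least 3 such members, medians ran from -0.22 for the miR-99/100 family (seed ACCCGUA, 0 of 3 above 0) to 0.10 for seed GUAAACA (2 of 3). The latter leaves out miR-30b-5p and miR-30d-5p, which had no matching entry. All 5 tested guides of the miR-30 family had a median of -0.08, with 2 above 0. The seed CAGUGCA of miR-148a-3p had 0 of 3 above 0 and a median of -0.13. By arm, the 164 tested 5p miRNAs had a median of -0.07 and the 160 tested 3p miRNAs -0.03.

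miR-6240 and the other 3 miRNAs with an unadjusted p under 0.05 were also read in the other treated groups. These comparisons share the control libraries, so likeness between them is no support. Against the same controls miR-6240 differed by 0.95 with TLC-S at 62.5 uM, 1.46 with caerulein at 100 nM and 1.57 at 100 pM. miR-1957a differed by 0.47, 0.69 and 1.54 in the same order, and miR-133a-3p by 2.0, 1.08 and 1.13. miR-21a-3p differed by -0.10 with TLC-S at 62.5 uM, by 2.19 with caerulein at 100 nM (interval from 0.73 to 3.64, unadjusted p = 0.00492, adjusted p = 0.432, edgeR) and by 1.55 with caerulein at 100 pM. A comparison that uses no control library is that of the 250 uM with the 62.5 uM dose of TLC-S. It reuses the 250 uM libraries by which these miRNAs were picked, so it is no support either. In it miR-6240 differed by 0.30 (interval from -0.61 to 1.21) and miR-1957a by 0.64 (interval from -0.43 to 1.71). miR-133a-3p differed by 0.40 (interval from -1.05 to 1.85). miR-21a-3p, at 0.483, 3.62 and 4.82 CPM with 62.5 uM, was higher at 250 uM by 1.68 (interval from 0.15 to 3.21, adjusted p = 0.467, edgeR).

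Between the doses of TLC-S, 4 of 351 miRNAs passed (1.14% of those tested, edgeR, adjusted p under 0.05), against 31 at an unadjusted p under 0.05 (8.83%). For 3 of them the 250 uM libraries overlapped those of untreated acini, and for miR-203-3p they lay below both other groups. miR-3968 (minus strand, chr11:115447961-115448060, opposite an exon of Trim80) was at 42.5, 35.6 and 31.5 CPM with 250 uM, 11.6, 11.7 and 10.3 CPM with 62.5 uM and 40.7, 41.5 and 33.0 CPM in control. It was higher at 250 than at 62.5 uM by 1.69 (interval from 1.06 to 2.32, adjusted p = 0.00345, edgeR). Its 250 uM libraries differed from control by -0.08 (interval from -0.66 to 0.50). Whether all reads of miR-3968 come from its hairpin was not tested. miR-30b-5p was at 2469, 1736 and 2163 CPM with 250 uM and 596, 1026 and 793 CPM with 62.5 uM, higher at the higher dose by 1.40 (interval from 0.73 to 2.06, adjusted p = 0.0367, edgeR). In control it was at 1540, 1332 and 3880 CPM, around the 250 uM libraries (-0.08, interval from -0.74 to 0.57).

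The other 2 were lower at 250 uM than at 62.5 uM. miR-335-5p (chr6:30741299-30741396, intron of Mest, an imprinted gene) was at 4.73, 1.91 and 3.98 CPM with 250 uM, 25.1, 18.9 and 26.9 CPM with 62.5 uM and 2.42, 7.48 and 4.30 CPM in control. Its 250 uM libraries lay below all 3 at 62.5 uM (-2.71, interval from -4.12 to -1.31, adjusted p = 0.0449, edgeR) and overlapped control (-0.44, interval from -1.92 to 1.04). miR-203-3p was at 1459, 866 and 960 CPM with 62.5 uM and lower at 250 uM by a log2 difference of -0.96 (interval from -1.45 to -0.46, adjusted p = 0.0449, edgeR). Leaving out any 1 library of the 2 groups left 1 or 2 calls. The call of miR-3968 held in 17 of 18 alternative analyses, and that of miR-30b-5p in 12 of 18. For miR-335-5p this was 8 of 17, and for miR-203-3p it was 3 of 18.

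**Figure D5:**
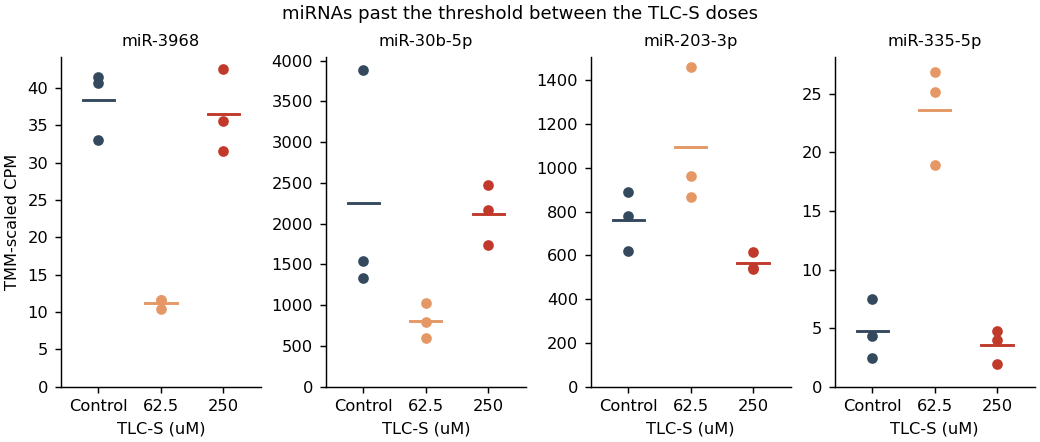
TMM-scaled CPM (y axes, from 0) of the 4 miRNAs that differed between the TLC-S doses, by dose of TLC-S (x axis), 1 point a library and a bar at the mean of 3. The 250 uM points overlap or lie beside the control points in each panel, and the 62.5 uM points lie apart from the 250 uM points.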

How the data were processed

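Small RNA of 15 libraries of mouse pancreatic acini was sequenced. Per the submitters' processing notes, cutadapt, Bowtie and the builds GRCm38 and mm10 were used, with no version and no counting program named. The authors deposited estimated counts of each mature miRNA, already whole, each within 0.5 of the sum of their counts per precursor. Reads of near-identical miRNAs may have been divided between them. The deposited RPM per precursor served for an alternative alone.

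The model in edgeR 4.0.16 (under R 4.3.3) had 1 mean for each of the 5 groups and all 15 libraries, which left 10 residual degrees of freedom. Scarce miRNAs were removed with filterByExpr (count 10, total 15), libraries were scaled by TMM, and contrasts were tested with glmQLFTest after glmQLFit. Benjamini-Hochberg adjustment ran over all 351 miRNAs, and the threshold was 0.05. The SE of a log2 difference came from the F statistic, and intervals are 95%. The labels list the libraries as separate samples, and each counted as 1 replicate. None was a copy of another: chi-square over its degrees of freedom was 153 or more for every pair of a group, which does not tell separate preparations from technical repeats. Arm ratios and shares were tested by exact permutation. The model was tested on simulated data.

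The members and lists were chosen with earlier results of these data known. The naming rule took the 8 smallest p-values in each direction, the 10 most abundant miRNAs, both arms of miR-21a, up to 4 abundant members of each list, the 5 highest and 5 lowest differences without overlap, calls between doses and the 4 hairpins with the widest arm differences. Not all are printed, and those outside it are marked. Alternatives covered scaling by library totals, RLE or upper quartile, the fit without the 3 most abundant miRNAs, filters, DESeq2 1.42.0, limma 3.58.1 on log2 RPM plus 1 or 10, robust dispersion, the 2 groups alone, a replicate block and leaving out each library. Figures were drawn with matplotlib 3.10.9 in Python 3.11.15, and precursors were placed with GENCODE M21.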

Additional observations from a re-analysis of the deposited data

Results flagged for a closer look

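Of the 388 miRNAs with a count in the 6 libraries that were too scarce to test, 111 had counts with TLC-S at 250 uM alone, 74 in control alone and 203 in both. Counts in all 3 TLC-S libraries and in no control library are a pattern outside the tested set. It was met by 3 miRNAs, all of them named after their values were seen. They were picked by this pattern, so it is no support for a difference. miR-540-3p, from the imprinted Dlk1-Dio3 locus, had 10 counts in all, 3, 1 and 6 by library. It was also counted with TLC-S at 62.5 uM (10, 0 and 4) and with caerulein at 100 nM (1, 0 and 19). miR-7240-5p had a sum of 8 counts, 1, 1 and 6 by library, and miR-7687-3p a sum of 6, 1, 1 and 4. TLC-S replicate 3, the deepest of the 6 libraries, gave the most of each, and the part of depth was not tested. In the opposite direction 1 miRNA, miR-5709-5p, had 12 counts over the 3 control libraries and 0 with TLC-S.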

How the results depend on the processing

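Against control, 0 miRNAs passed in any of the 18 alternative analyses, and at an unadjusted p under 0.05 leaving out single libraries gave 2 to 9. Between the TLC-S doses the 4 calls became 2 with RLE size factors, with upper quartile scaling, without the 3 most abundant miRNAs and with limma on log2(RPM + 10), and 1 at a mean CPM of at least 10. Leaving out single libraries gave 1 to 2. The cause was not tested. Of 57 miRNAs named with values, 40 kept the direction of their difference from control in all alternatives and 17 did not. As 0 miRNAs passed against control, no call was at stake. Among the 17 were miR-30b-5p, miR-3968 and miR-335-5p, which passed between the doses. As single libraries were left out, the difference of 45 of the 57 changed sign or moved by over 1.5 times.

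The values with the opposite sign were as follows. With library totals they were 0.081 for miR-148a-3p, 0.020 for miR-217-5p, 0.10 for miR-30b-5p and 0.038 for miR-27a-3p. With limma at 1 or 10 added they were 0.20 for miR-148a-3p at both, 0.064 for miR-217-5p at both, 0.0096 for miR-216a-5p at both, 0.14 for miR-30b-5p at both, and 0.059 and 0.058 for miR-27a-3p. RLE and DESeq2 gave 0.010 for miR-217-5p and 0.012 for miR-27a-3p, and upper quartile scaling gave 0.0098 and 0.025. Without the filter these were 0.0053 and 0.00035, and with the 2 groups alone 0.063 and 0.059. Without the 3 most abundant miRNAs, miR-27a-3p was at 0.042. At a mean CPM of at least 10, miR-34a-5p was at -8.4e-05. As single libraries were left out, the range was -0.61 to 0.97 for miR-148a-3p, -0.13 to 0.25 for miR-375-3p, -0.11 to 0.19 for miR-217-5p, -0.27 to 0.027 for miR-200a-3p, -0.18 to 0.069 for miR-30a-5p, -0.22 to 0.11 for miR-216a-5p, -0.031 to 0.29 for miR-429-3p and -0.22 to 0.35 for miR-150-5p. It was -0.22 to 0.22 for miR-146b-5p, -0.23 to 0.29 for miR-34a-5p, -0.33 to 0.57 for miR-30b-5p, -0.13 to 0.36 for miR-127-3p, -0.17 to 0.0041 for miR-3968, -0.70 to 0.10 for miR-335-5p, -0.028 to 0.089 for miR-27a-3p, -0.53 to 0.33 for miR-206-3p and -0.21 to 0.098 for miR-210-3p.

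As far as the labels tell, same-numbered libraries of different groups share only a number. Whether they deviate together from their groups was examined. Whether a shared preparation or batch lies behind it was not tested. The deviations of same-numbered libraries correlated by over 0.1 in 15 of 30 pairs, and by 0.054 to 0.40 in the 3 pairs of these groups. Pairs of these groups with different numbers correlated by -0.29 to 0.18. Of 15 libraries, 11 correlated best with one of their own number, and the main model had no term for this number. With a replicate block, 0 miRNAs passed against control and 4 between the doses. Against control, 7 miRNAs had an unadjusted p under 0.05 (edgeR) with the block and 4 without it. With the block the differences were 0.00015 for miR-148a-3p, -0.0078 for miR-34a-5p and 0.017 for miR-30b-5p. Depth limits what can be seen below 10 CPM, where no interval excluded a 2-fold difference in both directions.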
